A study of Sus scrofa with 32 samples.

Results

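Immediate early genes are genes whose transcription starts within minutes of a growth factor, hormone or stress signal, without new protein being made first. Signals that pass through the MAP kinases switch on transcription factors such as EGR1, FOS, JUN, MYC and KLF4, and with them regulators such as ZFP36, which leads short-lived mRNAs to decay. FOS and JUN pair to form the transcription factor AP-1, and MYC drives cell growth and ribosome production. In the liver several of these genes are known to respond to injury, regeneration and tissue handling, and their mRNAs turn over quickly.

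The members described here are 7 genes, EGR1, FOS, JUN, MYC, IER5, ZFP36 and KLF4, of 6765 genes that the array annotation names alone on a probe set. Every probe set annotated with exactly 1 of these symbols was taken, which gave 11 of the 23999 probe sets other than controls. EGR1 and IER5 have 3 probe sets each and the other genes have 1 each. A probe set was kept for testing if its value lay above the 40th percentile of its array on at least 5 arrays, and 10 of the 11 passed. The exception was the dimmest IER5 probe set, which lay above that percentile on 0 arrays. The other low ones were the dimmest EGR1 probe set, above it on 8 arrays, and KLF4, above it on 30. Probe sets of a gene are called the brightest, the second and the dimmest by their mean signal, and the plots give their identifiers. The remaining 8 were above it on all 32 arrays. The second EGR1 and the only MYC probe set carry the suffix _s_at and may match several transcripts.

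Liver RNA of Pietrain pig fetuses was hybridised to 32 1-colour arrays, 1 per sample, and the values are log2 signals. The fetuses came from gilts (young sows) fed either a methyl-enriched or a control gestation diet, and the study asked how the diet bears on liver gene expression through gestation. Both diets had 5 arrays at 35 days post coitum (dpc), 6 at 63 dpc and 5 at 91 dpc. All groups share the breed and the tissue, and the labels name no genetic modification or other treatment. Dam, litter and fetal sex are not given for the arrays, so the p-values measure the spread between these arrays and would be too small if fetuses of one dam share a group. The number of arrays, and of dams if fetuses share one, limits the precision.

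The spike-in controls bioC and bioB separated the arrays into 18 with a gap of 1.39 to 1.83 log2 units between them and 14 with a gap of 0.164 to 0.389, called high-gap and low-gap arrays here. Both kinds occur in every group, and the labels give no reason for the gap. The hepatocyte markers fixed for the label, among them ALB and TTR, were all measured (10 of 10). Their mean log2 level ran from 13.39 to 14.11 at 35 dpc, from 14.20 to 14.64 at 63 dpc and from 14.76 to 14.90 at 91 dpc, with no overlap between ages. The blood and stromal cell markers changed with age as well, as described beside the results they touch.

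**Figure D1:**
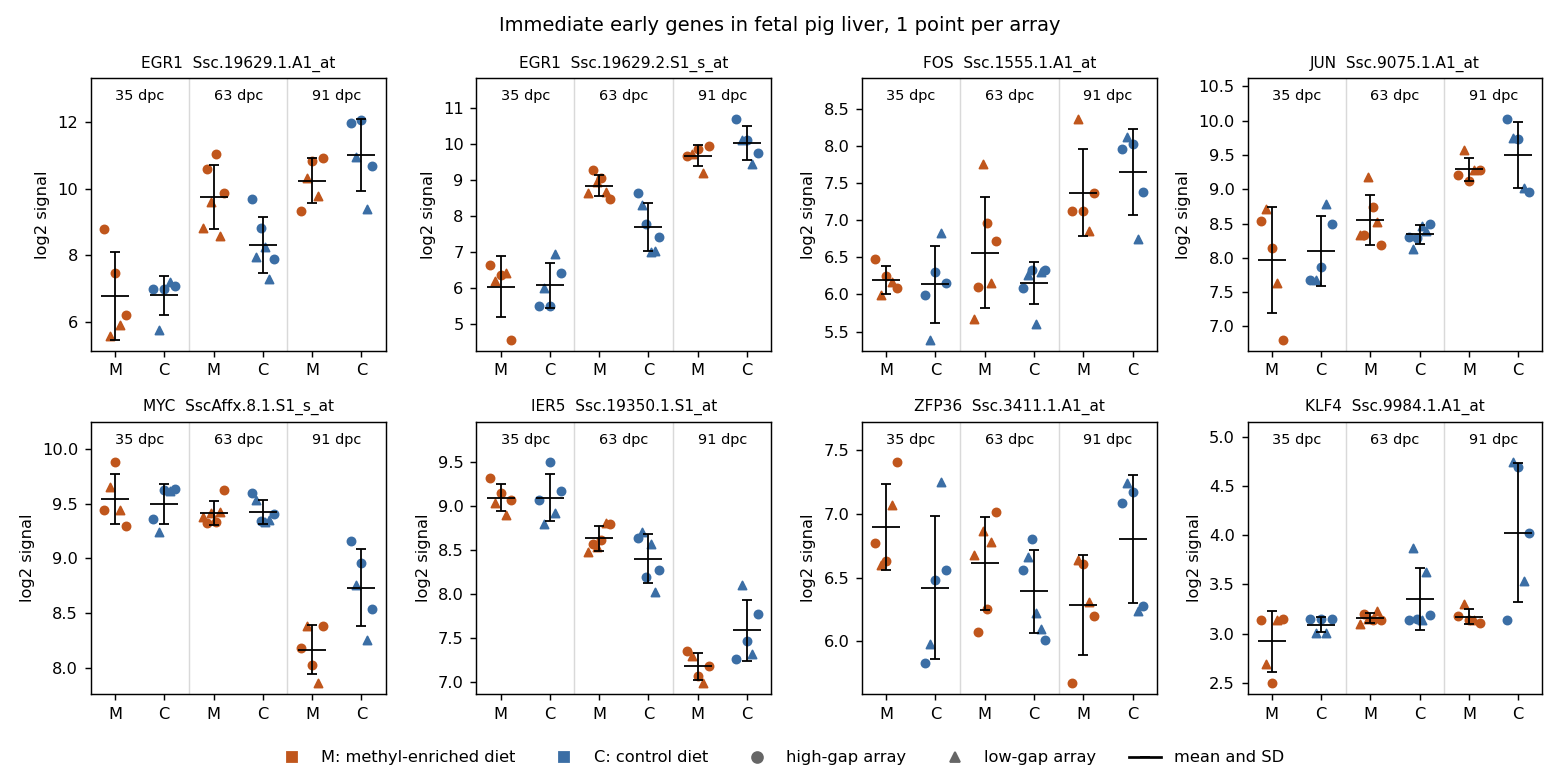
Log2 signal (y axis) of 8 probe sets of the 7 genes in each of the 32 arrays, by age and diet (x axis; M, methyl-enriched diet, left of C, control diet). Circles are high-gap and triangles low-gap arrays, and bars give the mean and SD of each group; EGR1 runs from 5.58 to 12.07 on its brightest probe set, whereas ZFP36 keeps within 5.68 to 7.41.

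With gestational age the early genes parted. EGR1 rose in both intervals, FOS and JUN rose between 63 and 91 dpc, and MYC and IER5 fell over the same interval. With the mean level of erythroid (red blood cell) markers added to the model, the calls of EGR1, FOS and JUN between 63 and 91 dpc were lost, and the sign turned for FOS and the brightest EGR1 probe set, whereas MYC and the brightest IER5 probe set were still called lower. ZFP36 was not called in any interval. The low KLF4 signal rose between 63 and 91 dpc in a call that several settings ended, while its methyl-diet mean hardly changed. A probe set is called where limma's moderated test gave an adjusted p under 0.05 (Benjamini-Hochberg over all 15327 probe sets kept), and the ages are averaged over the diets.

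Between 35 and 63 dpc 4 of the 10 member probe sets were called, 2 of EGR1 higher and 2 of IER5 lower. Of all probe sets tested, 32.5% were called higher and 28% lower in this interval, so a call is common among all genes. The dimmest EGR1 probe set passed the filter through 1 age only, 91 dpc, and is left out of the counts that follow in this paragraph. Counts of 10 members elsewhere include it. Of the other 9, 5 were called higher and 3 lower between 63 and 91 dpc, against 29.5% higher and 29% lower of all probe sets. Over the whole span from 35 to 91 dpc 5 were again called higher and 3 lower, against 40.8% higher and 39.1% lower of all. The median difference of these 9 was 0.19 (log2) at 63 minus 35 dpc, 0.34 at 91 minus 63 dpc and 0.59 at 91 minus 35 dpc. The medians of all probe sets in these contrasts were 0.05, -0.03 and 0.00.

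EGR1, a zinc finger transcription factor, had the widest range with age among the members. On its brightest probe set the lowest, median and highest log2 signals were 5.58, 6.99 and 8.78 at 35 dpc. The arrays of 63 dpc had 7.29, 8.82 and 11.06, and those of 91 dpc had 9.35, 10.76 and 12.07. Neighbouring ages overlapped, whereas every array at 91 dpc lay above every array at 35 dpc. The difference was 2.24 ± 0.38 (log2, SE) at 63 minus 35 dpc (4.73-fold, adjusted p = 9.59e-06) and 1.60 ± 0.38 at 91 minus 63 dpc (3.03-fold, adjusted p = 0.000604). With the erythroid marker mean in the model the later difference was -2.06 (adjusted p = 0.0835), so that call ended and its sign turned. The erythroid mean averaged lower in high-gap than in low-gap arrays in every group. Within groups this probe set had r = -0.67 with it, and it also differed between the spike-in kinds, as given below. The covariate is therefore not separate from the spike-in kind for this probe set, and their parts were not tested.

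The second EGR1 probe set gave differences of nearly the same size with a smaller spread. Its values were 4.57, 6.29 and 6.94 at 35 dpc (lowest, median and highest), 7.01, 8.56 and 9.28 at 63 dpc, and 9.20, 9.81 and 10.70 at 91 dpc. All arrays at 63 dpc were above all arrays at 35 dpc, and the lowest array at 91 dpc was just under the highest at 63 dpc. It rose by 2.21 ± 0.23 at 63 minus 35 dpc (adjusted p = 4.88e-09) and by 1.58 ± 0.23 at 91 minus 63 dpc (adjusted p = 9.75e-07). The later call was lost with the erythroid marker mean in the model (1.14, adjusted p = 0.235). Over the whole span this was 13.9-fold on this probe set and 14.3-fold on the brightest one.

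The dimmest EGR1 probe set was near the bottom of the scale, and at 35 dpc it stayed between 2.20 and 2.39. At 91 dpc its lowest, median and highest values were 2.39, 3.26 and 3.91, and 7 of 10 arrays there exceeded the 40th percentile of their array. At 63 dpc 1 of 12 arrays did, and at 35 dpc 0 of 10. It differed by 0.71 ± 0.17 at 91 minus 63 dpc (adjusted p = 0.000655) and by 0.20 ± 0.17 at 63 minus 35 dpc (adjusted p = 0.322). It passed the filter through the arrays of 91 dpc alone, so a difference in that direction was built into its selection, and its values are given as a description that adds nothing to those of the other EGR1 probe sets.

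The brightest EGR1 probe set was also the only member whose signal differed between the spike-in kinds of array. It was higher by 1.09 ± 0.25 in high-gap than in low-gap arrays with age and diet held (limma, adjusted p = 0.00168), a contrast in which 3691 of the 15327 probe sets were called. The other 2 EGR1 probe sets differed by 0.08 ± 0.19 and -0.08 ± 0.14 and were not called. Within the high-gap arrays the brightest probe set differed by 2.41 at 63 minus 35 dpc and by 1.32 at 91 minus 63 dpc. Within the low-gap arrays it differed by 2.30 and 1.71 in the same 2 contrasts, so the age difference was present in both kinds.

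**Figure D2:**
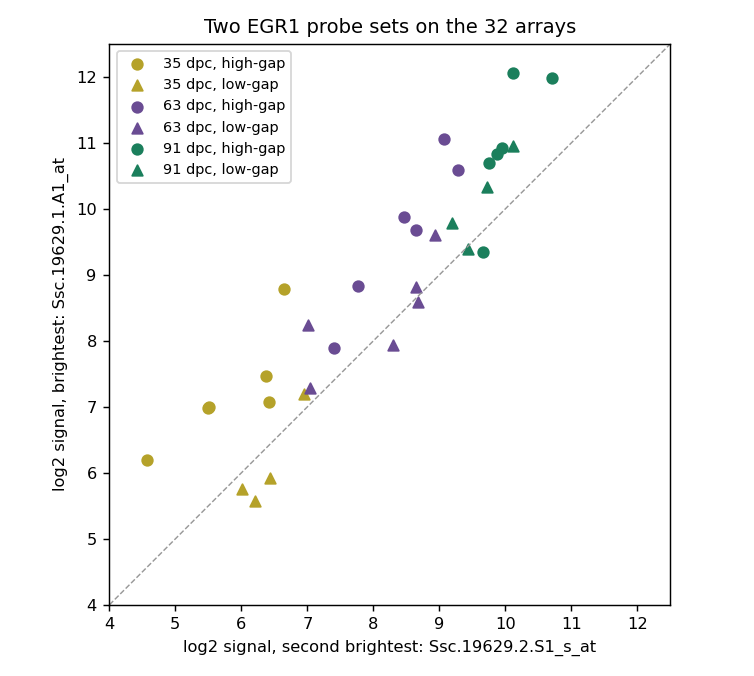
Log2 signal of EGR1 on 2 probe sets (x axis the second brightest, y axis the brightest) in the 32 arrays, coloured by age, with circles for high-gap and triangles for low-gap arrays and a dashed line of equal signal. Both probe sets order the ages alike, and the circles tend to lie higher above the line than the triangles, as the difference of 1.09 on the y axis probe set and 0.08 on the other describes.

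FOS and JUN, the partners of AP-1, rose late. The lowest, median and highest FOS signals were 5.39, 6.16 and 6.83 in the arrays of 35 dpc. They were 5.60, 6.28 and 7.76 for 63 dpc and 6.74, 7.38 and 8.37 for 91 dpc. The first and second ages covered much the same range, and at 91 dpc all but the lowest array were above every array at 35 dpc. FOS differed by 0.19 ± 0.22 at 63 minus 35 dpc (adjusted p = 0.454) and rose by 1.15 ± 0.22 at 91 minus 63 dpc (2.22-fold, adjusted p = 3.92e-05). With the erythroid marker mean in the model the later difference was -0.27 (adjusted p = 0.782), which ended the call and turned its sign.

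JUN had lowest, median and highest signals of 6.81, 8.005 and 8.78 at 35 dpc. The arrays of 63 dpc had 8.12, 8.37 and 9.18, and those of 91 dpc 8.96, 9.28 and 10.03. No array at 91 dpc fell into the range of 35 dpc, and the arrays at 35 dpc were the most scattered. JUN rose by 0.95 ± 0.18 at 91 minus 63 dpc (1.93-fold, adjusted p = 6.06e-05), a call lost with the erythroid marker mean in the model (0.81, adjusted p = 0.298). Its difference at 63 minus 35 dpc, 0.41 ± 0.18, missed the threshold (adjusted p = 0.0524). Leaving out any of 8 single arrays (control diet replicates 4 and 5 and methyl diet replicates 1 and 2 at 35 dpc, methyl diet replicate 6 and control diet replicate 2 at 63 dpc, control diet replicates 1 and 5 at 91 dpc) brought its adjusted p to between 0.0174 and 0.0494, and a stricter filter at the 60th percentile gave 0.0431.

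MYC, not called between 35 and 63 dpc, fell between 63 and 91 dpc. Its lowest, median and highest signals were 9.25, 9.53 and 9.89 at 35 dpc and 9.33, 9.39 and 9.63 at 63 dpc. At 91 dpc they were 7.86, 8.38 and 9.16, below every array of both earlier ages. MYC differed by -0.10 ± 0.10 at 63 minus 35 dpc (adjusted p = 0.374) and by -0.97 ± 0.10 at 91 minus 63 dpc, a 1.96-fold lower signal (adjusted p = 7.89e-10).

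IER5, a nuclear protein named for its early response to growth signals, fell in both intervals on its brightest probe set. The lowest, median and highest signals were 8.80, 9.07 and 9.50 in the arrays of 35 dpc. They were 8.03, 8.57 and 8.81 for 63 dpc and 6.99, 7.31 and 8.10 for 91 dpc. Neighbouring ages touched only at their ends, and 91 dpc lay wholly below 35 dpc. It fell by 0.58 ± 0.10 at 63 minus 35 dpc (adjusted p = 2.61e-05) and by 1.14 ± 0.10 at 91 minus 63 dpc (adjusted p = 2.48e-10).

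The second IER5 probe set held the same value, 3.97 within 0.01, on 16 arrays, most of them at 63 dpc, and ran from 3.21 to 4.55. It was lower by 0.25 ± 0.10 at 63 minus 35 dpc (adjusted p = 0.028) and by 0.23 ± 0.10 at 91 minus 63 dpc (adjusted p = 0.0437). The later of these calls was lost on leaving out any of 15 single arrays, and the earlier one on leaving out any of 3, as listed with the other settings. The IER5 probe set that failed the filter held 2.26 within 0.01 on 27 arrays and carried no measurable pattern.

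KLF4, a Krüppel-like zinc finger factor, was low throughout, and 15 arrays held the value 3.15 within 0.01. Its lowest, median and highest signals were 2.50, 3.14 and 3.15 at 35 dpc. For 63 dpc they were 3.09, 3.15 and 3.87, and 3.10, 3.24 and 4.75 for 91 dpc. The 6 highest arrays were all from control-diet fetuses at 63 and 91 dpc. Group means at 63 and 91 dpc were 3.35 and 4.03 with the control diet, and 3.16 and 3.17 with the methyl diet. The rise averaged over the diets, given next, was thus one of the control-diet arrays. KLF4 rose by 0.34 ± 0.14 at 91 minus 63 dpc (adjusted p = 0.038), a call lost with no filter (adjusted p = 0.0593), after quantile normalization (0.181), with the erythroid marker mean in the model (0.908), and on leaving out any of 9 single arrays (methyl diet replicate 1 and control diet replicates 1, 3, 4 and 6 at 63 dpc, methyl diet replicates 1 and 2 and control diet replicates 2 and 3 at 91 dpc). The 91 minus 35 dpc difference was 0.59 ± 0.15 (adjusted p = 0.000604).

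ZFP36 (tristetraprolin), which binds AU-rich mRNAs, overlapped fully between the ages. Its lowest, median and highest signals were 5.83, 6.62 and 7.41 (35 dpc), 6.01, 6.61 and 7.01 (63 dpc) and 5.68, 6.46 and 7.25 (91 dpc). It differed by -0.16 (95% interval -0.52 to 0.20) at 63 minus 35 dpc and by 0.04 (-0.32 to 0.40) at 91 minus 63 dpc, with adjusted p of 0.453 and 0.847.

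**Figure D3:**
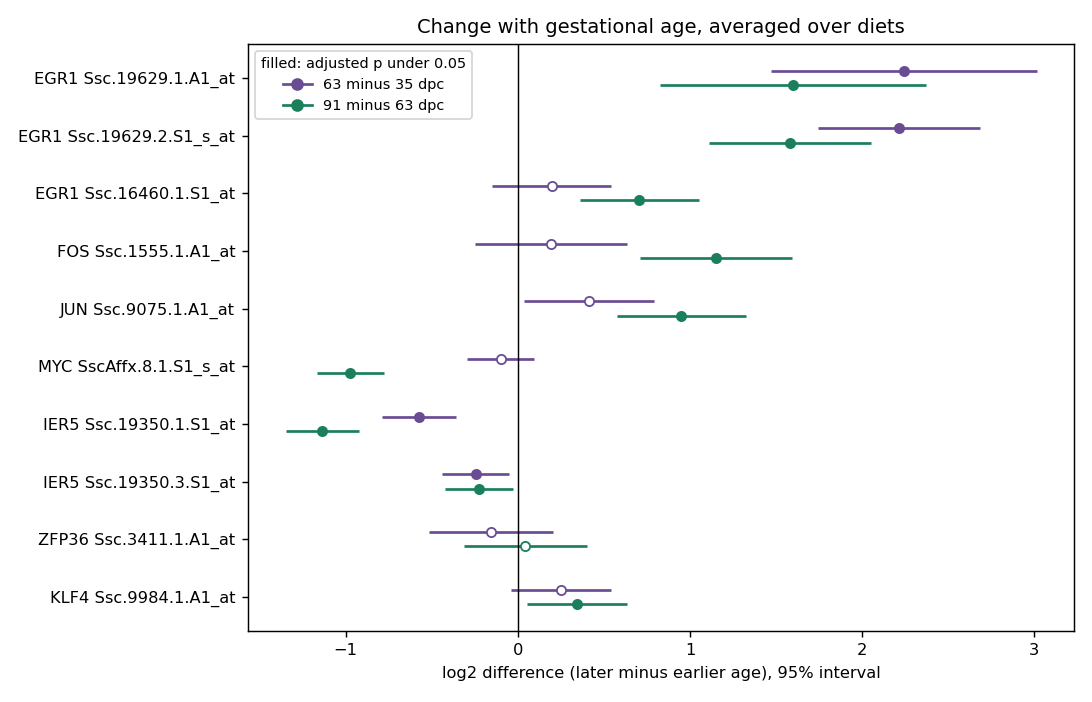
Log2 difference between successive ages (x axis, later minus earlier, averaged over diets) with its 95% interval for the 10 member probe sets that passed the filter (y axis); filled points have an adjusted p under 0.05. The first 2 EGR1 probe sets lie near 2.2 and 1.6, FOS and JUN are called only in the later interval, and MYC and IER5 lie on the other side of 0.

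Cell type markers changed over the same ages, and in bulk liver RNA fewer cells of a type and less RNA per cell cannot be told apart. Beside the counts below, 32.5% of all probe sets were called higher and 28% lower at 63 minus 35 dpc. At 91 minus 63 dpc these shares were 29.5% and 29%. Of the 10 hepatocyte markers 7 rose and 0 fell at 63 minus 35 dpc, and 4 rose and 2 fell at 91 minus 63 dpc, and their mean level was higher at each later age, as EGR1 was. Fetal liver makes red blood cells, and of the 7 erythroid markers measured (of 16 listed) 5 fell and 1 rose in each interval. Their mean log2 level was 10.08 to 10.95 at 35 dpc, 9.62 to 10.44 at 63 dpc and 7.62 to 8.95 at 91 dpc. Of the 5 neutrophil markers measured (of 10 listed) all rose at 63 minus 35 dpc and all fell at 91 minus 63 dpc, with ranges of 7.54 to 8.91, 8.71 to 9.76 and 7.02 to 8.08 at the 3 ages. Of the 9 macrophage markers measured (of 14) 2 rose and 1 fell in the earlier interval, and 5 rose and 1 fell in the later one, with ranges of 6.90 to 7.62, 7.21 to 7.93 and 8.14 to 8.70. Endothelial markers (8 of 12 measured) ranged from 6.17 to 6.70, 6.69 to 7.06 and 6.70 to 7.14. Stellate cell and fibroblast markers (7 of 11) ranged from 6.67 to 7.21, 6.35 to 6.74 and 6.53 to 7.15. Of the lymphocyte markers, 7 of the 12 are on the array and none passed the filter.

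With the erythroid marker mean added to the model, 2 of the 10 members were called at 91 minus 63 dpc, both lower (MYC and IER5 on its brightest probe set). MYC then differed by -1.41 (adjusted p = 0.00156) and IER5 by -1.47 (adjusted p = 0.00292), and the values of the other members stand beside their results. The erythroid levels at 63 and 91 dpc did not overlap, so for this interval erythroid level and age cannot be told apart by the arrays' ranges. The share of all probe sets that kept a call in this model is not given here. The lost calls are therefore not read as particular to these genes. At 63 minus 35 dpc the same covariate left EGR1 called, at 2.08 on its second probe set and at a smaller 1.15 on the brightest probe set (adjusted p = 2.11e-06 and 0.00924). The part of the other cell types, hepatocytes included, in these differences was not tested.

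Among 29 other early response genes measured (of 53 listed), 12 rose and 6 fell at 63 minus 35 dpc, and 9 rose and 9 fell at 91 minus 63 dpc. Of all probe sets tested, 32.5% were called higher and 28% lower in the earlier interval, and 29.5% and 29% in the later one. The median differences of the early response genes were 0.10 and -0.10. SGK1, a kinase induced by serum and glucocorticoids, rose by 0.77 ± 0.11 and then by 0.83 ± 0.11 (adjusted p = 4.82e-07 and 1.15e-07). KLF10 rose by 0.79 ± 0.12 at 63 minus 35 dpc, as BTG1 did by 0.59 ± 0.11, and PER1, a clock gene, fell by 0.81 ± 0.12. In the later interval IRF1, a transcription factor of the interferon response, rose by 1.03 ± 0.13, whereas GADD45A fell by 0.85 ± 0.10 and THBS1, a matrix glycoprotein, by 1.13 ± 0.18.

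Of 10 genes measured that signal upstream of the early genes (of 28 listed), 4 rose and 4 fell in the earlier interval, and 3 rose and 4 fell in the later one. The shares of all probe sets were 32.5% higher and 28% lower, then 29.5% and 29%. EGFR, the epidermal growth factor receptor, rose by 0.96 ± 0.15 and by 1.17 ± 0.15 in the 2 intervals (adjusted p = 4.54e-06 and 2.01e-07). Of the kinases behind it, MAP2K2 fell by 0.57 ± 0.09 and by 0.46 ± 0.09, MAPK3 fell by 0.87 ± 0.16 at 63 minus 35 dpc, and MAP2K4 rose by 0.79 ± 0.13 at 91 minus 63 dpc. The adaptors SHC1 and GRB2 fell, SHC1 by 0.92 ± 0.17 at 63 minus 35 dpc and GRB2 by 1.68 ± 0.29 at 91 minus 63 dpc.

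Against 28% and 29% of all probe sets called lower in the 2 intervals stand the MYC partners and ribosome biogenesis genes. Of 18 measured (of 27 listed), 13 fell and 3 rose at 63 minus 35 dpc, and 14 fell and 2 rose at 91 minus 63 dpc. Their median differences were -0.61 and -0.60, and MYC itself was called only in the later interval. FBL, a methyltransferase of the nucleolus, fell by 0.82 ± 0.08 and by 0.87 ± 0.08 in the 2 intervals (adjusted p = 2.19e-09 and 3.57e-10). SRM, spermidine synthase, fell by 1.35 ± 0.16 and PES1, needed for the large ribosomal subunit, by 0.80 ± 0.11 in the earlier interval. ODC1, the first enzyme of polyamine synthesis, fell by 1.31 ± 0.10 in the later one, as did CCND2 by 1.37 ± 0.18 and DKC1 by 0.73 ± 0.09. NPM1, a nucleolar chaperone, went the other way and rose by 0.86 ± 0.11 at 63 minus 35 dpc and by 0.50 ± 0.11 at 91 minus 63 dpc. The list also holds genes outside ribosome production, such as SRM and ODC1, so these counts do not describe ribosome biogenesis genes alone.

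For the diet, 0 of the 10 members were called by limma at any age, averaged over ages, or as a diet effect that differs between ages. Among all probe sets 0.0391% were called at 35 dpc, 0% at 63 dpc and 0.0718% at 91 dpc. The shares were 0% for the average and 0% for the difference between ages. At an unadjusted p under 0.05 the members numbered 0 at 35 dpc, 2 at 63 dpc, 3 at 91 dpc and 2 for the average. The background shares at that unadjusted threshold were 6.09%, 1.43%, 6.52% and 4.47%.

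At 63 dpc both unadjusted differences were those of EGR1. On the second probe set the lowest, median and highest signals were 8.47, 8.81 and 9.28 in methyl-diet fetuses, against 7.01, 7.59 and 8.65 in control-diet fetuses. Only the highest control-diet array reached into the methyl-diet range. The difference was 1.15 ± 0.31 (2.22-fold higher with the methyl diet, unadjusted p = 0.000855, adjusted p = 1), the 4th smallest p of 15327 in a contrast with no calls. On the brightest probe set the values were 8.59, 9.74 and 11.06 in methyl-diet fetuses and 7.29, 8.09 and 9.68 in control-diet fetuses, a difference of 1.44 ± 0.51 (adjusted p = 1). The difference on the second probe set was 0.99 within high-gap and 1.30 within low-gap arrays, and on the brightest 1.71 and 1.17. The mean log2 level of the neutrophil markers on these arrays was 8.97 to 9.76 in methyl-diet and 8.71 to 9.13 in control-diet fetuses. None of these markers was called. LTF had a difference of 0.57 and S100A8 one of 0.73, methyl minus control diet, the 2 with an unadjusted limma p under 0.05. Their part in the EGR1 difference was not tested.

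At 35 dpc the second EGR1 probe set had 6.64, 6.20, 6.38, 6.43 and 4.57 in the methyl-diet arrays, against 5.50, 6.01, 5.49, 6.94 and 6.42 in the control-diet arrays. At 91 dpc its values were 9.66, 9.73, 9.87, 9.20 and 9.94 in methyl-diet arrays and 10.70, 10.11, 10.12, 9.44 and 9.75 in control-diet arrays. The groups overlapped at both ages, with differences of -0.03 ± 0.34 and -0.35 ± 0.34. The diet difference between ages had an unadjusted p of 0.0063 on this probe set and an adjusted p of 0.9997.

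At 91 dpc all 10 members had a negative difference, methyl minus control diet, with a median of -0.43. They include the dimmest EGR1 probe set (-0.45), which passed the filter through the arrays of this age and adds no support. Each of the other members was negative as well. Of all probe sets tested 57.6% were below 0 there, and their median was -0.04. No cell type marker was called there. Of the 7 stellate cell and fibroblast markers 2 had an unadjusted limma p under 0.05, RGS5 (-0.73) and PDGFRB (-0.33). The means of that list were 6.53 to 6.98 in methyl-diet and 6.54 to 7.15 in control-diet arrays. The endothelial marker VWF (0.57) and the hepatocyte marker TF (0.12) had such a p with the opposite sign. The part of these markers in the member differences was not tested. The 10 are not independent, since EGR1 and IER5 give 5 of them and the same arrays give all. In these groups the 3' to 5' difference of the control probe sets, a measure of RNA integrity and labelling, was 2.05 ± 0.47 in methyl-diet and 1.63 ± 0.27 in control-diet arrays (SD, n = 5 each), and its part was not tested beyond the covariate given below.

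KLF4 had the largest of these differences. Its signals at 91 dpc were 3.18, 3.30, 3.14, 3.14 and 3.10 in methyl-diet arrays, against 3.14, 4.75, 4.70, 3.54 and 4.02 in control-diet arrays. Of the control-diet arrays 4 stood above all methyl-diet arrays, and replicate 1 held the value repeated on many arrays. The difference was -0.86 ± 0.21 (1.81-fold lower with the methyl diet, adjusted p = 0.166). Without control-diet replicate 1 it was -1.08 (adjusted p = 0.00948) and without replicate 4 -0.98 (adjusted p = 0.0448), and over all settings and arrays left out the adjusted p ran from 0.00948 to 1.

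MYC at 91 dpc had 8.18, 8.38, 8.02, 7.86 and 8.38 in methyl-diet arrays and 9.16, 8.76, 8.96, 8.25 and 8.54 in control-diet arrays. All but the lowest control-diet array were above every methyl-diet array. The difference was -0.57 ± 0.14 (1.48-fold lower with the methyl diet, adjusted p = 0.166). It was called without control-diet replicate 4 (-0.69, adjusted p = 0.0256) and with the erythroid covariate (-0.62, adjusted p = 0.0462), within a range of adjusted p up to 1. With the 3' to 5' difference as a covariate MYC differed by -0.59 (adjusted p = 0.243) and KLF4 by -0.75 (adjusted p = 0.378).

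IER5 had 7.35, 7.30, 7.07, 6.99 and 7.18 in methyl-diet arrays at 91 dpc, against 7.27, 8.10, 7.47, 7.32 and 7.77 in control-diet arrays. The groups overlapped at their edges, and the difference was -0.41 ± 0.15 (adjusted p = 0.538). ZFP36 had 5.68, 6.64, 6.61, 6.31 and 6.20 in methyl-diet arrays and 7.08, 7.25, 7.18, 6.24 and 6.28 in control-diet arrays. Of the control-diet arrays 3 were above all methyl-diet arrays and 2 lay among them, with a difference of -0.52 ± 0.26 (adjusted p = 0.78). At 35 dpc ZFP36 had the opposite sign, 6.77, 6.60, 6.63, 7.07 and 7.41 in methyl-diet arrays against 5.83, 5.98, 6.48, 7.25 and 6.56 in control-diet arrays (0.48 ± 0.26, adjusted p = 0.867).

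FOS and JUN were not called for the diet at any age, also at an unadjusted p of 0.05. At 91 dpc FOS had 7.13, 8.37, 7.12, 6.86 and 7.37 in methyl-diet arrays against 7.96, 8.11, 8.03, 6.74 and 7.38 in control-diet arrays (-0.28, 95% interval -0.93 to 0.37). JUN had 9.21, 9.57, 9.13, 9.28 and 9.28 in methyl-diet arrays against 10.03, 9.75, 9.74, 9.02 and 8.96 in control-diet arrays (-0.20, -0.76 to 0.35). The JUN control-diet arrays lay partly above and partly below the tight methyl-diet group. At 63 dpc the intervals were -0.18 to 1.004 for FOS and -0.30 to 0.71 for JUN, and at 35 dpc -0.59 to 0.71 and -0.68 to 0.43.

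**Figure D4:**
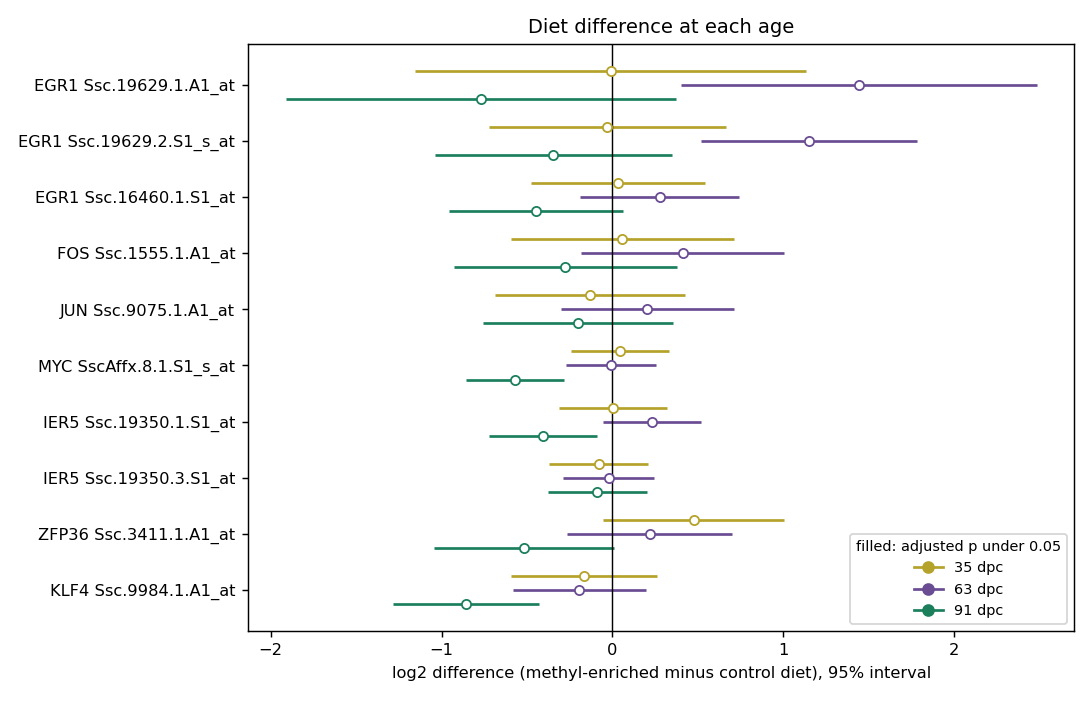
Log2 difference between methyl-enriched and control diet (x axis, methyl minus control, with its 95% interval) at 35, 63 and 91 dpc for the 10 member probe sets that passed the filter (y axis); open points did not pass an adjusted p of 0.05. All points are open, EGR1 at 63 dpc lies at 1.44 and 1.15, and all points for 91 dpc are below 0.

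The test of a diet effect that differs between ages gave 6 of the 10 members an unadjusted p under 0.05, where 4.31% of all probe sets had one. These were the 2 brighter EGR1 probe sets, MYC, the brightest IER5 probe set, ZFP36 and KLF4, with adjusted p from 0.9997 to 1. Averaged over the ages KLF4 differed by -0.41 ± 0.12 and MYC by -0.18 ± 0.08 between methyl and control diet, with an adjusted p of 0.999 each. Of the other early response, upstream signalling and MYC-related genes none was called for the diet by limma in any diet contrast. At 91 dpc 5 of the 29 other early response genes had an unadjusted p under 0.05, as did 1 of the 10 upstream and 1 of the 18 MYC-related genes. Of all probe sets 6.52% had one in that contrast. The smallest p of the averaged contrast were those of GADD45A (-0.26 ± 0.08) and BTG1 (-0.25 ± 0.09) among early response genes, EGFR (0.16 ± 0.13) and MAPK9 (-0.15 ± 0.16) upstream, and LDHA (-0.20 ± 0.08) and WDR12 (-0.33 ± 0.13) among the MYC-related genes.

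Within a group of one age and diet the members differed in how much the arrays scattered. The residual SD of the brightest EGR1 probe set was 0.945 (log2), at the 99.2th percentile of all probe sets tested and 0.747 once the spike-in kind was removed. The second EGR1 probe set had 0.566 (86.4th percentile), FOS 0.524 (82.2th) and JUN 0.448 (71.2th). ZFP36 had 0.419 and KLF4 0.336, near the median of all probe sets, 0.348. MYC (0.213, 13.1th percentile) and IER5 (0.235, 18.2th) were among the steadier ones, so the members that fell with age scattered least.

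Arrays that were high for FOS within their group tended to be high for JUN and MYC, but not only for these. Of 15326 other probe sets ranked by r with FOS, JUN was at rank 82 and MYC at rank 101. Ranked by r with JUN, FOS was at 227, so many other probe sets followed these genes more closely. Of the 21 pairs of member genes, each by its brightest probe set, 2 had deviations from the group mean that were related at an adjusted p under 0.05 (permutation within groups, two-sided, adjusted over the 21 pairs). FOS and JUN had r = 0.54 and rho = 0.60 over 32 arrays (permutation p = 0.00036 for r and 0.00086 for rho, adjusted p = 0.0076 and 0.018). Without the 2 arrays most extreme for FOS r was 0.47 and the call was lost (adjusted p = 0.0702). It was 0.57 within the 18 high-gap and 0.68 within the 14 low-gap arrays. FOS and MYC had r = 0.52 and rho = 0.55 (permutation p = 0.0028 and 0.0026, adjusted p = 0.03 and 0.028). Without the 2 arrays most extreme for FOS r was 0.57 (adjusted p = 0.0395). Arrays extreme for MYC or JUN alone were not removed. Within the high-gap and low-gap arrays r of FOS and MYC was 0.44 and 0.71.

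The pairs EGR1 with FOS, FOS with ZFP36 and JUN with MYC had r = 0.44, 0.50 and 0.52, each with an adjusted permutation p of 0.057. FOS, which rose with age, thus varied within groups together with MYC, which fell. With EGR1 taken by its second probe set, a choice made after seeing the data, 6 pairs passed. EGR1 then had r = 0.60 with JUN (0.82 within high-gap and 0.30 within low-gap arrays) and r = 0.52 with MYC (0.49 and 0.72), each with a permutation p adjusted over the 21 pairs of 0.02. IER5 and KLF4 were in none of the pairs that passed on the brightest probe sets. Over all 32 arrays their strongest link was with each other (r = 0.41, adjusted permutation p = 0.32), and it was 0.24 within high-gap and 0.55 within low-gap arrays. Within the low-gap arrays IER5 had a higher r with MYC (0.72), and KLF4 with ZFP36 (0.64).

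**Figure D5:**
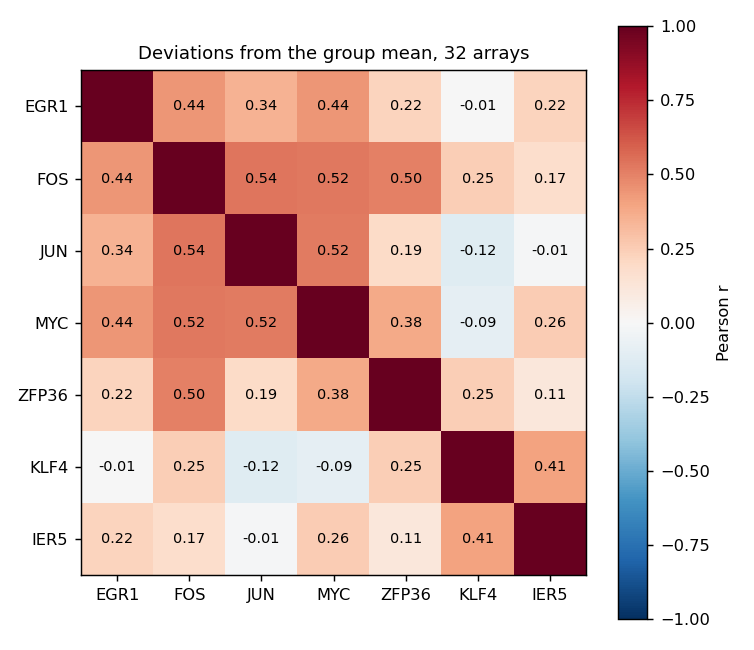
Pearson r between the deviations of each pair of early genes (both axes) from their group means over the 32 arrays, each gene by its brightest probe set, coloured from -1 to 1. FOS stands with JUN (0.54) and MYC (0.52), and KLF4 and IER5 have weaker links with the rest except with each other (0.41).

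The named genes whose deviations were most like those of each member over the 32 arrays are given as a description, since they are the highest of 15326 other probe sets. For FOS the closest was the dimmest EGR1 probe set (r = 0.76, rho = 0.60), followed by PJA1 (0.75) and CYP2C49 (0.71). That EGR1 probe set had a mean signal of 2.65, near the bottom of the scale, and exceeded the 40th percentile on only 8 arrays. The brightest and second EGR1 probe sets had r = 0.44 and 0.33 with FOS. The r of the dimmest one is therefore not read as a link of EGR1 with FOS. For the brightest EGR1 probe set the closest genes were CKAP4 (r = 0.83), SCPEP1 (0.80) and HDAC5 (0.78), and that probe set also differed between the spike-in kinds. For JUN they were SPARC (0.75), FCN2 (0.74) and LIMS2 (0.72), and for MYC MYH9 (0.73), VIL1 (0.72) and PLTP (0.68). For IER5 they were TMED4 (0.78), ISCA2 (0.76) and POLR2G (0.76), and for ZFP36 VMO1 (0.70), CEBPD (0.66) and SLC50A1 (0.65). For KLF4 the closest, ABCB1 (0.66), LRP6 (0.66) and LOC100739425 (0.65), had mean signals of 2.41 to 2.86, near the bottom of the scale, and their rho was lower, 0.27 to 0.45.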

How the data were processed

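Liver RNA of 32 fetuses was measured on Affymetrix porcine arrays, 1 per sample. Per the labels' protocols, biotinylated cRNA was made from DNase-treated total RNA, and the submitters' processing notes list GCOS 1.1.1 without its role. The values deposited by the authors are log2 signals per probe set and array; their normalization is not given in the sources used here. Array medians ran from 3.83 to 4.22, and the values were used as deposited. The deposited file held 24123 probe sets, with 124 controls. Symbols come from the array annotation, which gives 1 symbol for 10099 probe sets.

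limma 3.58.1 (R 4.3.3) fitted 6 group means with an intensity trend and 26 residual degrees of freedom; p-values were adjusted by Benjamini-Hochberg over 15327 probe sets. Co-variation was computed with Python 3.11.15, numpy 2.4.6, pandas 2.3.3 and scipy 1.17.1, with 100000 permutations within groups; figures used the plotting package matplotlib 3.10.9. In simulated data of 15327 probe sets for 91 minus 63 dpc, 32 of 67, 58 of 67 and 66 of 66 planted changes of 0.5, 1 and 2 (log2) were recovered. There were 8 false calls among the probe sets without a planted change. For the diet at 63 dpc it was 15 of 67, 52 of 67 and 66 of 66 with 6 false calls. Only the planted probe sets differed there, with independent noise, whereas 29.5% were called higher and 29% lower at 91 minus 63 dpc in the data. The recovery therefore does not give the power of the age tests.

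Members and gene lists were chosen with earlier results of these data known. Every member probe set is named; of each list other than the cell type markers, up to 4 genes by adjusted p in each interval and 2 by p in the averaged diet contrast, each by its brightest probe set; and for each member the 3 genes most like it. Alternatives were no intensity trend, no or a stricter filter, quantile normalization, the spike-in kind as a block or each kind alone, erythroid level or 3' to 5' difference as a covariate, array weights, and leaving out each array. Replicate numbers follow the deposited order and pair nothing.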

Additional observations from a re-analysis of the deposited data

Results flagged for a closer look

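Within groups of one age and diet, 12 single values stood far from the other arrays of their group by Dixon's criterion, out of 66 groups examined; chance flags about 1 in 20 groups. Of these, 7 belong to the dimmest and the second IER5 probe set, on which 27 and 16 of the 32 arrays held one repeated value, so that a small departure stands out. They were 2.78 (methyl diet, replicate 4) and 2.48 (control diet, replicate 4) at 35 dpc, 2.36 (methyl diet, replicate 1) at 63 dpc, and 2.37 (methyl diet, replicate 4) and 2.20 (control diet, replicate 5) at 91 dpc on the dimmest. On the second they were 3.96 (methyl diet, replicate 2) and 4.09 (control diet, replicate 2) at 63 dpc.

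EGR1 had a far value on each of its probe sets: 3.91 on the dimmest (methyl diet, 63 dpc, replicate 3), 4.57 on the second (methyl diet, 35 dpc, replicate 5) and 5.75 on the brightest (control diet, 35 dpc, replicate 2). The array with 3.91 also had the highest FOS signal of its group, 7.76. FOS was low at 5.60 in control-diet replicate 4 at 63 dpc, and MYC was high at 9.63 in methyl-diet replicate 6 at 63 dpc. The cause of these values was not tested.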

How the results depend on the processing

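Of the member counts, those for the diet at 35 and 63 dpc, for the average and for the difference between ages kept their side of the threshold under every alternative, and the spike-in kind as a block changed no count of calls by over 1.5 times. Low-gap arrays alone gave 2 calls at 63 minus 35 dpc and 5 at 91 minus 63 dpc, with fewer arrays. The erythroid covariate gave 2 calls at 91 minus 63 dpc, 3 at 91 minus 35 dpc and 1 for the diet at 91 dpc. Leaving out single arrays gave 0 to 2 calls for the diet at 91 dpc. With that covariate the sign turned at 91 minus 63 dpc for FOS (-0.27), EGR1 on its dimmest (-0.29) and brightest (-2.06) probe sets and the second IER5 probe set (0.035), and at 91 minus 35 dpc for FOS (-0.49) and the same EGR1 probe sets (-0.38 and -0.91). None of these was then called, and the cause was not tested. For the brightest EGR1 probe set the covariate is not separate from the spike-in kind. The shares of all probe sets called under these settings are not given here. The counts of calls are therefore not read as particular to the members. The pairs of members that passed numbered 4 by Spearman's rho and 1 without the 2 arrays most extreme for the first gene of each pair (order EGR1, FOS, JUN, MYC, KLF4, ZFP36, IER5). They numbered 0 with either the high-gap or the low-gap arrays alone, and 6 with EGR1 by its second probe set. The median residual SD of the members was 0.414, and 0.419 with the spike-in kind removed. The second IER5 probe set lost its call without 1 of 3 arrays at 35 dpc (control-diet replicates 3 and 4, methyl-diet replicate 1). At 91 minus 63 dpc it lost it without any of 15 arrays (methyl-diet replicates 1 to 6 and control-diet replicates 1, 2, 3, 4 and 6 at 63 dpc, methyl-diet replicates 2 and 3 and control-diet replicates 4 and 5 at 91 dpc), with differences of -0.23 to -0.16. Repeated values at the bottom of the scale limit what KLF4, this probe set and the dimmest one of EGR1 can show. No paired analysis was possible because the labels number no replicates.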
